A study of Mus musculus with 8 samples.

Results

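Wnt ligands are secreted, lipid-modified glycoproteins that carry signals between neighbouring cells. The RNA of 10 such genes was examined here in pancreatic ductal adenocarcinoma (PDAC) cells: Wnt3, Wnt4, Wnt5a, Wnt5b, Wnt6, Wnt7a, Wnt7b, Wnt9a, Wnt10a and Wnt11. These 10 members were chosen by gene name out of the 19 Wnt ligand genes among the 53465 genes counted, with their levels in these libraries known and with no stated threshold. They include 2 genes near 0, Wnt3 and Wnt6, and leave out Wnt10b, which was counted 228 to 967 times per library. Because the members were chosen with these values known, their levels and changes are given as descriptions, with no p-value printed. Where members that passed a p threshold are counted, nothing is read from the count.

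A Wnt ligand is acylated by the enzyme PORCN, escorted to the cell surface by WLS and bound by Frizzled receptors. With the LRP5 and LRP6 co-receptors it stabilises β-catenin, which works with TCF and LEF factors on target genes such as Axin2. With ROR, RYK or PTK7 receptors it can instead act on cell polarity and movement. In the pancreas, Wnt signalling takes part in organ growth, and in PDAC the ubiquitin ligase RNF43, which removes Frizzled receptors, is recurrently mutated. SMAD4 is the shared partner of the receptor-activated SMADs in transforming growth factor-β (TGFβ) signalling and is often lost in PDAC.

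RNA was sequenced from 2 cell lines, B73 and B87, each grown out of a primary tumor of the KC-shSmad4 mouse. Both lines share a Ptf1a-Cre driver, active in the pancreas, a Rosa26 rtTA3-IRES-mKate2 transactivator and a doxycycline (Dox)-inducible, GFP-linked Smad4 shRNA at the Col1a1 locus. With Dox Smad4 was off (knocked down), and it was on in cells grown for 5 days without Dox before plating. Treatment began 24 h after plating. Each state was treated for 24 h with 100 pM TGFβ1 or with 2.5 µM of the compound SB505124, which blocks the kinase of TGFβ type I receptors, giving 4 groups with 1 library per line and 8 libraries. The 2 lines serve as replicates, no Dox-only control is among the libraries, and the effect of Smad4 state cannot be told apart from that of Dox. No library is untreated, so every TGFβ1 effect, rise or fall given here is TGFβ1 against SB505124. A change made by TGFβ1 and one made by SB505124 cannot be told apart.

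The libraries held 18389235 to 23440550 counts, so the 3 counts taken as a floor for a gene at 0 came to 0.125 to 0.162 CPM (counts scaled to library size). Smad4, the targeted gene, was at 33.7 to 35.5 CPM in the 4 Smad4-off libraries and at 97.4 to 117 CPM in the 4 Smad4-on libraries. Restoring it changed its RNA by a log2 fold change of 1.73 ± 0.0919 (SE, n = 2 lines) with TGFβ1 (edgeR adjusted p = 0.00084) and of 1.62 ± 0.0919 with SB505124 (edgeR adjusted p = 0.00234). Of the markers of the labelled epithelial origin, Krt8, Krt18, Krt19 and Cdh1 were above 10 CPM in every library, while Epcam did not exceed 2.11 CPM. Cpa1, Ctrb1, Ptf1a, Ins2 and Gcg, markers of acinar and islet cells, were at 0 counts in every library, as were the immune markers Adgre1 and Cd3e, the endothelial marker Emcn and the fibroblast marker Lum. Other markers of these lists were detected: Cela1 (acinar) at 8 to 32 counts, Cd68 (macrophage) at 1.17 to 6.29 CPM, Cdh5 (endothelial) at 0 to 54 counts and Pdgfrb (fibroblast) at 0 to 653 counts. Kdr, an endothelial receptor, was at 6.04 (B73) and 25.2 CPM (B87) with Smad4 off under TGFβ1 and at 0.378 to 5.01 CPM in the other 6 libraries, and it fell by 3.35 ± 0.312 in log2 units with Smad4 on under TGFβ1 (edgeR adjusted p = 0.00289). Their part in the ligand differences was not tested. The summed fibroblast list of 6 genes ranged from 4.0 to 647 CPM, and in the highest library 627 CPM of it was Col1a1, the gene whose locus carries the shRNA.

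The promoters of Wnt7a, Wnt9a and Wnt4 are shown because these ligands had large differences with TGFβ1 treatment that ran the same way in both lines. RefSeq windows of 300 bases (250 before and 50 after each start, GRCm38.p6) were matched for 7 of the 10 members, all but Wnt5a, Wnt7b and Wnt10a, in 10 windows. Only the bases before the start and outside annotated exons are printed, 5′ to 3′ on the strand of the gene, for Wnt7a at chr6:91411364-91411512 (minus strand), Wnt9a at chr11:59306680-59306927 (plus strand) and Wnt4 at chr4:137277385-137277488 (plus strand). Capitals mark a match to CAGAC, the short core that SMADs bind, on either strand.
Wnt7a: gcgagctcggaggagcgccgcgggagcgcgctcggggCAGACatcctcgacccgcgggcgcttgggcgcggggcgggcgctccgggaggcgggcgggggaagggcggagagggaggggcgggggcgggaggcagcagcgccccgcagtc
Wnt9a: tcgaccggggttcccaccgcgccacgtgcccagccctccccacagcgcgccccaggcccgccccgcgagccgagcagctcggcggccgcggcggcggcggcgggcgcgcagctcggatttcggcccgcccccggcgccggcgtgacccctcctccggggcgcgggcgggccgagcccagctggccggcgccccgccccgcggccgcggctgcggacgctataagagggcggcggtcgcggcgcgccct
Wnt4: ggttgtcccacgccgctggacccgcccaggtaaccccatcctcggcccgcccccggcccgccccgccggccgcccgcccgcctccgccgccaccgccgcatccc
All 3 windows were rich in G and C. GC content over the 300 bases was 76.0% for Wnt7a, 83.3% for Wnt9a and 84.3% for Wnt4, against a median of 52.7% over the 32851 windows of the table. They held 42, 58 and 51 CpG dinucleotides against a median of 7. CAGAC was in the full windows of Wnt7a and Wnt9a and not in that of Wnt4, and 49.594% of all windows held it. The SMAD palindrome GTCTAGAC, which 0.213% of all windows held, was in none of the 10 members' windows, searched on both strands like the other motifs. The AP-1 site TGANTCA was in 1 window of Wnt5b (7.808% of all windows held it), and a TCF/LEF site, CTTTGAT or CTTTGAA, was in 1 window each of Wnt5b and Wnt11 (8.651% of all windows).

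Per kilobase of exon, the scale on which different genes can be compared, Wnt7a had the highest level of the members, with a mean of 25.3 CPM per kilobase over the 8 libraries. Wnt7b followed at 8.88, Wnt5a at 3.93, Wnt9a at 2.39, Wnt4 at 1.29, Wnt10a at 1.13, Wnt5b at 0.394, Wnt11 at 0.103, Wnt3 at 0.00908 and Wnt6 at 0.00786. Neighbours in this order mostly changed places between libraries. Wnt7a was above Wnt7b in 7 of 8 libraries and Wnt5b above Wnt11 in 7 of 8, Wnt5a was above Wnt9a in 6 and Wnt7b above Wnt5a in 5. Wnt9a was above Wnt4 in 4 of 8, and this split followed the treatment: above in every TGFβ1 library and below in every SB505124 library. Wnt4 was above Wnt10a likewise in 4 of 8, without a fixed order over the libraries. Wnt10b, the most abundant of the 9 other Wnt genes, had a mean of 7.31 CPM per kilobase over the 8 libraries, between Wnt7b and Wnt5a. Its place differed between the lines within a group. With Smad4 off under SB505124 it was at 12.3 in B73, above Wnt7a at 7.85, and at 7.78 in B87, below Wnt7a at 8.17. With Smad4 on under TGFβ1 it was at 3.42 in B73, above Wnt5a at 3.35, and at 4.84 in B87, below Wnt5a at 12.7.

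The summed level of the 10 members was 18.8 to 23.5 CPM per kilobase in the 4 SB505124 libraries. In the TGFβ1 libraries it was 57.3 (B73) and 40.5 (B87) with Smad4 off, and 85.0 and 80.5 with Smad4 on. The sums of the treatments did not overlap, and under TGFβ1 the Smad4-on sums were above the Smad4-off sums. Under SB505124 the sums of the Smad4 states overlapped, but their makeup differed. With Smad4 off, Wnt7a made up 33.3% (B73) and 43.5% (B87) of the sum, beside Wnt7b at 26.9% and 8.89%, Wnt4 at 21.4% and 13.3% and, in B87, Wnt10a at 18.9%. With Smad4 on, Wnt7a made up 80.4% and 71.1% and Wnt4 5.03% and 3.98%.

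**Figure D1:**
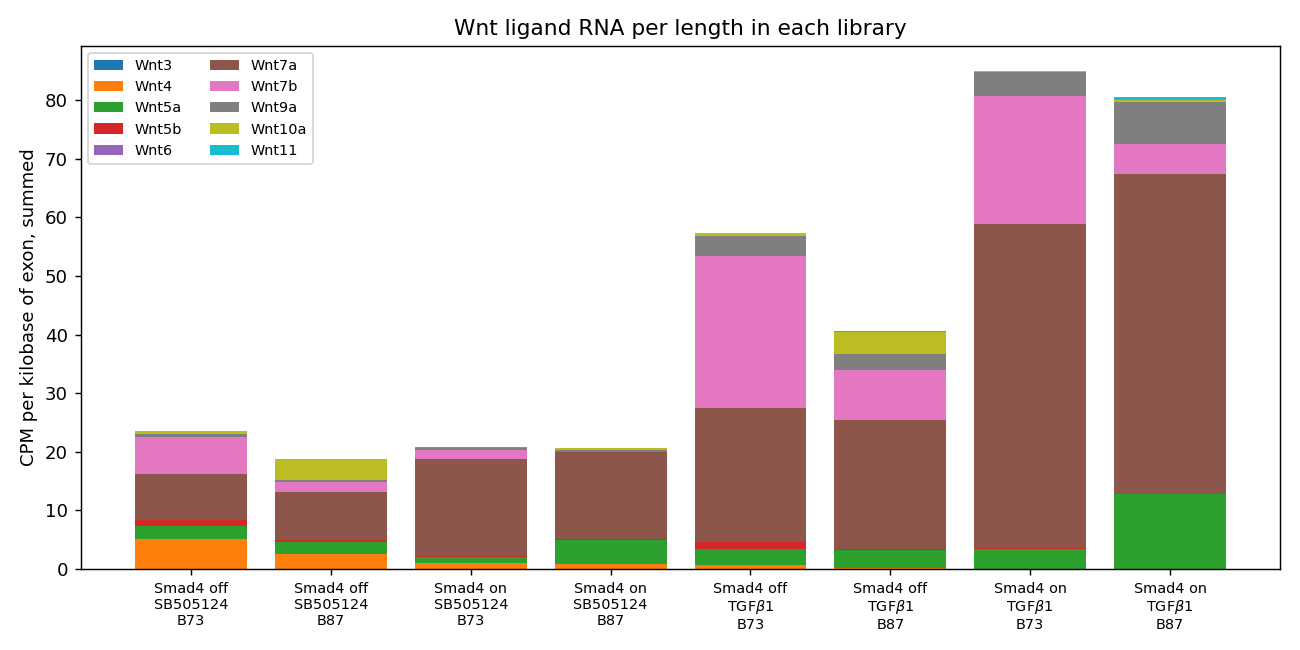
Stacked bars give the level of each of the 10 ligands (CPM per kilobase of exon) in each of the 8 libraries, named by Smad4 state, treatment and line. The 4 SB505124 bars end between 18.8 and 23.5 and the 4 TGFβ1 bars between 40.5 and 85.0, with Wnt7a the tallest part in 7 of 8 bars.

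Wnt7a, a ligand known from limb, reproductive tract and brain vessel development (chr6:91363981-91411363, minus strand, GRCm38), had the same 4 steps in both lines. B73 had 24.9 CPM with Smad4 off under SB505124, 52.8 with Smad4 on under SB505124, 72.4 with Smad4 off under TGFβ1 and 175 with Smad4 on under TGFβ1. B87 had 25.9, 46.7, 70.0 and 173 CPM in the same order of groups. No group overlapped another, and the lines differed by less than the steps between groups. The log2 fold change of Smad4 on against off was 0.97 ± 0.0888 (SE, n = 2 lines) under SB505124 and 1.29 ± 0.0855 under TGFβ1. TGFβ1 against SB505124 gave 1.48 ± 0.0889 with Smad4 off and 1.81 ± 0.0872 with Smad4 on. Wnt7a was thus higher with TGFβ1 also where Smad4 was off, by 2.91-fold in B73 and 2.70-fold in B87.

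Wnt7b, a close relative of Wnt7a that acts in lung and kidney development (chr15:85535439-85581821, minus strand), shared the direction with TGFβ1 but not with Smad4. B73 had 31.0 CPM with Smad4 off and 7.08 with Smad4 on under SB505124, and 127 and 107 CPM under TGFβ1. B87 had 8.17 and 0.250 CPM, the latter from 6 counts, under SB505124, and 42.1 and 25.5 CPM under TGFβ1. Under SB505124 each line was lower with Smad4 on, by 4.39-fold in B73 and 32.7-fold in B87, for a fitted log2 fold change of -2.67 ± 0.468. Under TGFβ1 the groups of Smad4 state overlapped and the log2 fold change was -0.49 ± 0.366. TGFβ1 against SB505124 came to 2.22 ± 0.390 with Smad4 off and 4.39 ± 0.465 with Smad4 on. The difference between these effects was 2.17 ± 0.594 on the log2 scale, with line values of 1.87 (B73) and 3.86 (B87), and did not pass the threshold over all genes. B87 was lower than B73 in every group. On the opposite strand AU022754, counted 1 to 29 times, shares exon positions with Wnt7b, as do Gm2670 (0 to 10 counts) with Wnt5a and Gm8398 (0 counts) with Wnt11, and whether reads were counted by strand is not given in the sources used here.

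Wnt9a, which acts in joint formation (chr11:59306928-59333552, plus strand), stood low under SB505124 and higher under TGFβ1. Under SB505124 B73 had 1.70 CPM with Smad4 off and 1.40 with Smad4 on, and B87 had 1.36 and 1.08. Under TGFβ1 B73 had 11.4 and 13.8 CPM, and B87 had 9.17 and 23.6. The treatments did not overlap in either Smad4 state. TGFβ1 against SB505124 gave a log2 fold change of 2.76 ± 0.338 with Smad4 off, 6.74-fold in B73 and 6.73-fold in B87. With Smad4 on it was 3.91 ± 0.350, 9.81-fold in B73 and 21.8-fold in B87. Smad4 on against off came to -0.31 ± 0.394 under SB505124 and 0.85 ± 0.289 under TGFβ1, the latter 1.20-fold in B73 and 2.58-fold in B87.

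Wnt4, a regulator of kidney tubule and female reproductive tract formation (chr4:137277489-137299726, plus strand), ran the opposite way to Wnt7a. B73 had 21.2 CPM with Smad4 off under SB505124, 4.38 with Smad4 on under SB505124, 2.53 with Smad4 off under TGFβ1 and 0.153 with Smad4 on under TGFβ1. B87 had 10.5, 3.45, 0.946 and 0.102 CPM in the same order. The last group rests on 3 counts in B73 and 2 in B87. No group overlapped another. Under SB505124 Smad4-on cells were 4.84-fold (B73) and 3.03-fold (B87) lower than Smad4-off cells, a log2 fold change of -1.93 ± 0.256. Under TGFβ1 the ratio of Smad4 off to on was 16.5 in B73 (95% exact conditional interval 5.38 to 82.4) and 9.28 in B87 (2.24 to 82.2), intervals that cover counting error only. With Smad4 off, TGFβ1 cells were 8.37-fold (B73) and 11.0-fold (B87) below SB505124 cells. A share of 1.242% of the 75-base windows of the Wnt4 transcript occurs in other genes, against 0 for the other 18 Wnt genes.

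Wnt10a, known from tooth, hair and skin appendage formation (chr1:74791516-74804179, plus strand, 6193 bases from Wnt6), differed with Smad4 state and hardly with treatment. With Smad4 off B73 had 1.30 CPM under SB505124 and 1.20 under TGFβ1, and B87 had 8.74 and 9.12. With Smad4 on B73 had 0.0540 CPM (1 count) and 0.204 (4 counts), and B87 had 0.957 and 0.663. Smad4-on libraries were below all Smad4-off libraries. The log2 fold change of Smad4 on against off was -3.34 ± 0.384 under SB505124 and -3.44 ± 0.401 under TGFβ1. TGFβ1 against SB505124 gave -0.01 ± 0.295 with Smad4 off and -0.10 ± 0.476 with Smad4 on. B87 was above B73 by a log2 fold change of 2.78 ± 0.272 over the groups. Wnt6, its neighbour on the chromosome, was counted 1 and 2 times in the Smad4-off SB505124 libraries of B73 and B87 and 0 times in the other 6 libraries.

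Wnt5a, the best known ligand of ROR receptors and of polarity signalling (chr14:28504750-28527448, plus strand), split the lines. B73 had 17.9 CPM with Smad4 off and 8.21 with Smad4 on under SB505124, and 22.0 and 26.2 CPM under TGFβ1. B87 had 16.8 and 32.5 CPM under SB505124, and 23.0 and 99.6 CPM under TGFβ1. The Smad4-off libraries of the lines were close to each other, and the Smad4-on libraries were not. Under SB505124 the log2 fold change of Smad4 on against off was -1.12 in B73 and 0.95 in B87, and under TGFβ1 it was 0.25 and 2.11. The fitted values were -0.02 ± 0.550 and 1.21 ± 0.536, and the Smad4 effect was 1.96 ± 0.135 higher in B87 on the log2 scale. The TGFβ1 effect in Smad4-on cells was alike in the lines, 3.19-fold in B73 and 3.07-fold in B87.

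Wnt5b, the paralog of Wnt5a (chr6:119432531-119544347, minus strand), was low and was lower with Smad4 on, above all in B73. B73 had 2.55 CPM with Smad4 off and 0.162 (3 counts) with Smad4 on under SB505124, and 3.30 and 0.459 CPM under TGFβ1. B87 had 0.703 and 0.499 CPM under SB505124, and 0.448 and 0.255 under TGFβ1. In B73 the ratio of Smad4 off to on under SB505124 was 15.7 (95% exact conditional interval 5.08 to 78.7), while B87 was 1.41-fold higher with Smad4 off. The fitted log2 fold changes of Smad4 on against off were -1.89 ± 0.849 under SB505124 and -2.19 ± 0.849 under TGFβ1. The Smad4 effect was 2.72 ± 0.739 higher, that is less negative, in B87.

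Wnt11, a ligand of tissue elongation and kidney branching (chr7:98835112-98855195, plus strand), did not pass the filter on low counts. It had 0, 2, 0 and 7 counts in B73 and 1, 4, 7 and 47 counts in B87, in the order Smad4 off and on under SB505124 and Smad4 off and on under TGFβ1. The 47 counts of B87 were 2.40 CPM. In each line the Smad4-on TGFβ1 library was the highest, and in B87 it was 6.87-fold above Smad4 off. Wnt3, known from the intestinal stem cell niche, was counted 0 to 2 times in every library, under the floor of 3 counts, and no difference was detectable at this depth.

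**Figure D2:**
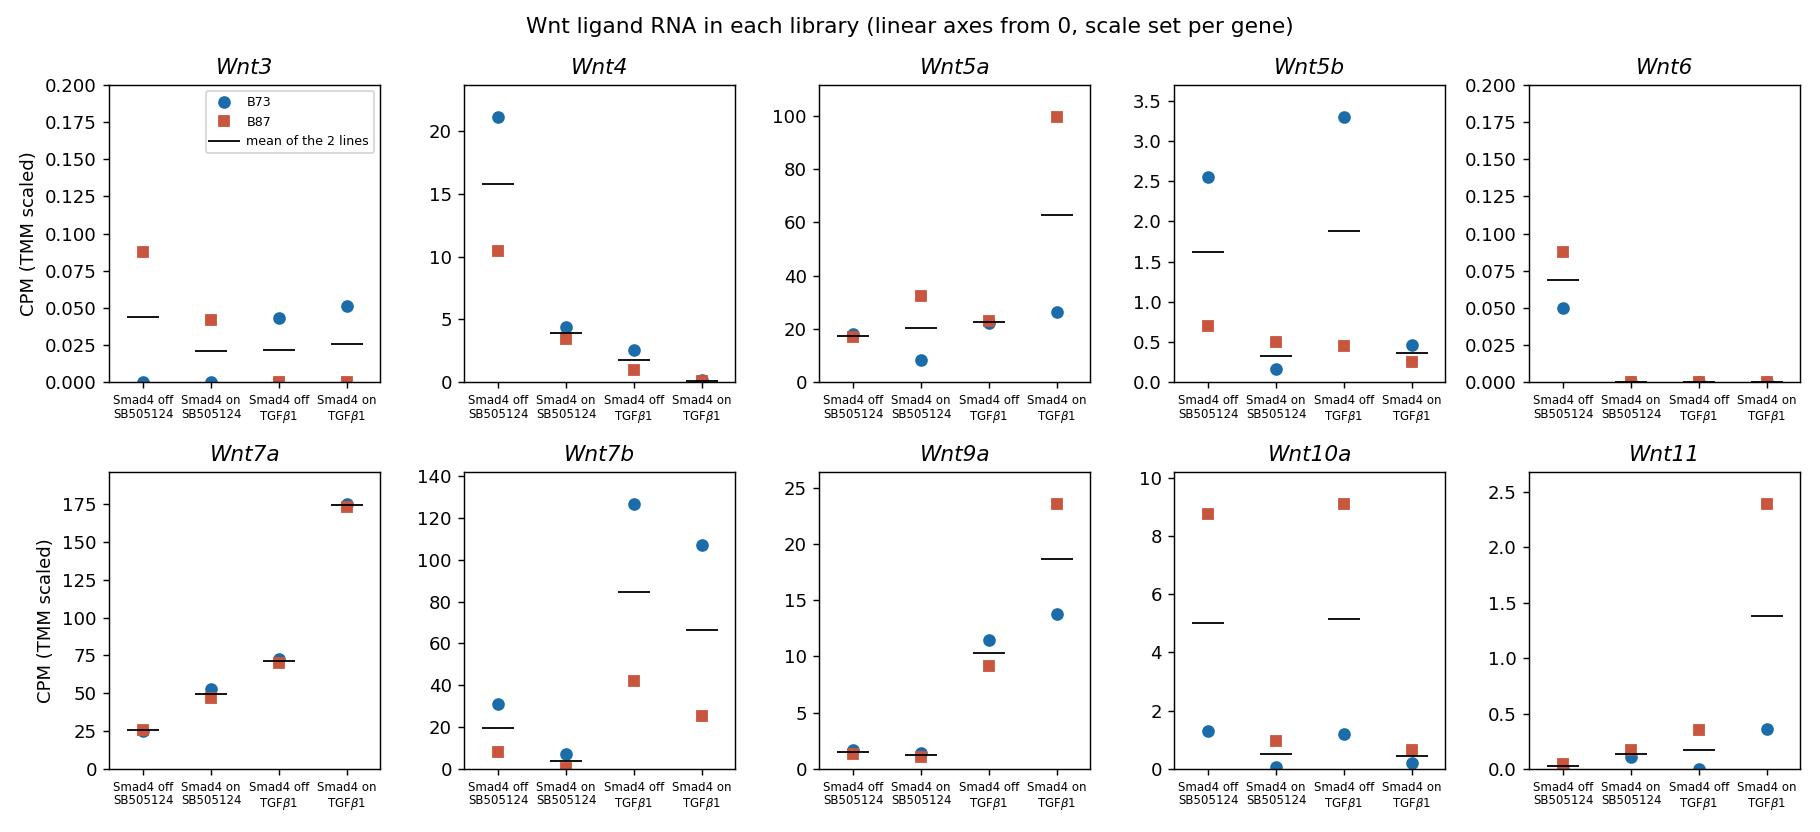
Each panel gives 1 ligand, with CPM on a linear axis from 0 scaled per gene, points for the lines B73 (circles) and B87 (squares), and a bar at the mean of the 2 lines in each group. Wnt7a steps up from 24.9 and 25.9 CPM to 175 and 173, Wnt4 steps down in the same order of groups, and Wnt5a splits between the lines at 26.2 and 99.6 CPM with Smad4 on under TGFβ1.

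Over all genes, 14301 passed the filter on low counts, and 7 of the 10 members were among them, all but Wnt3, Wnt6 and Wnt11. A gene was called at an edgeR adjusted p under 0.05 and a change over 2-fold. The members' counts are a description, since the members were chosen with these contrasts known, and nothing is read from them. With Smad4 on against off under TGFβ1, 1 member was called higher (Wnt7a) and 2 lower (Wnt4 and Wnt10a), beside 1.31% of all tested genes higher and 1.80% lower. Under SB505124 none was called higher and 3 lower (Wnt4, Wnt7b and Wnt10a), beside 0.636% and 0.455% of all genes. With TGFβ1 against SB505124 in Smad4-on cells, 3 were called higher (Wnt7a, Wnt7b and Wnt9a) and 1 lower (Wnt4), beside 5.62% and 8.31% of all genes. In Smad4-off cells the called members were again Wnt7a, Wnt7b and Wnt9a higher and Wnt4 lower, beside 3.11% and 2.82%. For the interaction of Smad4 state and treatment 0 of the 7 tested members were called by edgeR, beside 0.189% of all genes in either direction. DESeq2 with the line as a term called 0 as well, and 4 of the 7 had an unadjusted edgeR p under 0.05. The shares of all tested genes by DESeq2 and at the unadjusted threshold are not given here, and nothing is read from these counts.

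**Figure D3:**
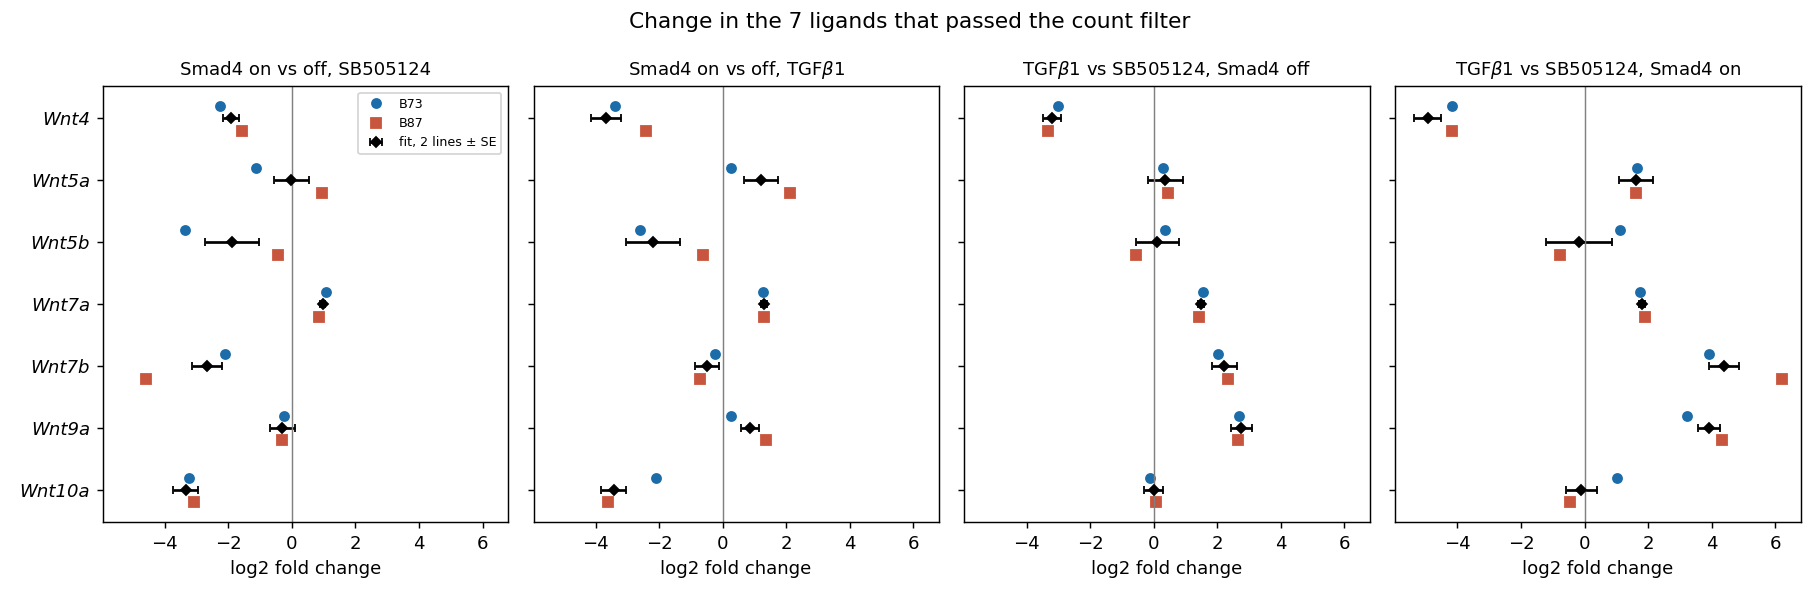
Each panel gives 1 comparison, with the log2 fold change of the 7 tested ligands: diamonds are the edgeR fit over the 2 lines with its SE, circles B73 and squares B87. Wnt7a lies close together in the lines in all 4 panels, and Wnt5a lies on opposite sides of 0 with Smad4 on against off under SB505124, at -1.12 and 0.95.

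Single libraries decided part of these calls. Under SB505124 Wnt7b was called with 2 of the 8 libraries left out in turn and lost with 6, all but the Smad4-on SB505124 libraries, with a log2 fold change of -5.05 to -2.09. Wnt10a under SB505124 was lost without any 1 of the 4 SB505124 libraries, with -4.46 to -3.17, and Wnt4 without the B73 SB505124 library of either Smad4 state or the Smad4-off SB505124 library of B87, with -2.32 to -1.54. Under TGFβ1 Wnt4 was lost without either B73 TGFβ1 library (-3.94 to -3.23) and Wnt10a without either B87 TGFβ1 library (-3.77 to -2.52). Wnt7b with TGFβ1 in Smad4-off cells was lost without either Smad4-off SB505124 library or the Smad4-off TGFβ1 library of B87 (1.86 to 2.59). With each of the 8 libraries left out in turn, the log2 fold change of Wnt7a with Smad4 under TGFβ1 was 1.27 to 1.31. With TGFβ1 in Smad4-on cells the change was -5.36 to -4.58 for Wnt4 and 1.72 to 1.90 for Wnt7a. There Wnt7b had 3.81 to 6.76 and Wnt9a 3.31 to 4.42. In Smad4-off cells Wnt4 had -3.62 to -2.90, Wnt7a 1.42 to 1.56 and Wnt9a 2.49 to 3.01. These ranges come from the libraries whose values were known when the members were chosen, and they are a description only.

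Between the lines, Wnt10a was called higher and Wnt7b lower in B87, beside 8.37% of all genes called in either direction. The Wnt7b difference was -2.08 ± 0.291 on the log2 scale. For the line difference in the TGFβ1 effect 0 of 7 members were called by edgeR, beside 1.10% of all genes. There 1 member had an unadjusted edgeR p under 0.05. The share of all genes at that threshold is not given here, and nothing is read from this count. For the line difference in the Smad4 effect Wnt5a and Wnt5b were called, beside 2.59%. That model left 1 residual degree of freedom.

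Over the 8 libraries, log2 CPM of Wnt7a and Wnt4 had a Pearson correlation of -0.98, Wnt7a and Wnt9a one of 0.86 and Wnt7b and Wnt9a one of 0.72, with libraries of the same 4 groups and 2 lines behind every point. Among the 14300 other tested genes, those most like Wnt7a were Mkl1 (r = 0.996) and Mob3a (0.990). Prdm8 (0.984) was among those most like Wnt7b, and those most like Wnt5a were St7 (0.980) and Gm8318 (0.975). These values describe 8 libraries and were not tested.

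Of the 6 epithelial markers, Krt19 and Cdh1 fell with TGFβ1 in Smad4-on cells and only Krt19 in Smad4-off cells, while Krt8, Krt18, Krt7 and Epcam did not pass the test in either state. In Smad4-on cells the log2 fold changes with TGFβ1 were 0.20 ± 0.384 for Krt8, 0.52 ± 0.284 for Krt18 and -0.19 ± 0.288 for Krt7 (edgeR adjusted p = 0.723, 0.205 and 0.650). Krt19, a duct keratin, was at 626 to 1575 CPM in the SB505124 libraries and at 153 to 436 in the TGFβ1 libraries. Cdh1, the epithelial cadherin, fell with TGFβ1 in Smad4-on cells, where its fitted change was -2.31 ± 0.458 in log2 units (edgeR adjusted p = 0.00936). Col1a1, a fibrillar collagen, rose with TGFβ1 in Smad4-on cells by 2.43 ± 0.219 and with Smad4 under TGFβ1 by 1.78 ± 0.214 (edgeR adjusted p = 0.000409 and 0.00656). It reached 627 CPM in B87 and 5.10 CPM in B73 with Smad4 on under TGFβ1. The summed epithelial list of 6 genes was 1170 to 5722 CPM in Smad4-on TGFβ1 libraries and 1650 to 6183 in Smad4-on SB505124 libraries. The part of these markers in the ligand differences was not tested. In bulk RNA, fewer cells of a type and less RNA per cell cannot be told apart.

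Of the 94 other genes listed for the pathway, 64 passed the filter on low counts. These lists were chosen with earlier results of these data known, and nothing is read from their counts. With TGFβ1 against SB505124 in Smad4-on cells 8 of them rose and 9 fell, beside 5.62% of all tested genes higher and 8.31% lower. In Smad4-off cells 5 rose and 0 fell by edgeR, beside 3.11% and 2.82%. The same shares stand beside the counts of each list below. At an unadjusted edgeR p under 0.05, 5 were lower in Smad4-off cells, and DESeq2 called 0 lower. With Smad4 on against off under TGFβ1 1 rose and 2 fell, beside 1.31% and 1.80% of all tested genes. Under SB505124 0 passed by edgeR, beside 0.636% and 0.455%, with 13 at an unadjusted edgeR p under 0.05 and 0 called by DESeq2. For the counts at an unadjusted p and by DESeq2, the shares of all tested genes are not given here. Of the 9 other ligands, Wnt10b and Wnt2b were tested and neither passed in those 4 comparisons. Wnt10b, a regulator of bone and fat cell fate, had 41.9, 18.4, 41.4 and 11.6 CPM in B73 and 26.4, 26.8, 15.8 and 16.5 CPM in B87, in the order Smad4 off and on under SB505124 and Smad4 off and on under TGFβ1. It was lower with Smad4 on in B73 and within 1.04-fold of Smad4 off in B87, and the line difference in its Smad4 effect was a log2 value of 1.52 ± 0.163 (edgeR adjusted p = 3.33e-05). Wls, the ligand escort, had 202 to 432 CPM, and Porcn 14.6 to 39.4 CPM, and neither passed the fold threshold.

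Among 16 receptors and co-receptors 15 were tested. With TGFβ1 in Smad4-on cells 1 rose and 2 fell, and the median log2 fold change was 0.11 beside -0.02 for all tested genes. Ror1, a receptor of Wnt5a, rose by 3.21 ± 0.483 in Smad4-on cells and 1.93 ± 0.496 in Smad4-off cells (edgeR adjusted p = 0.00309 and 0.0471). It had 1.68 CPM in B73 and 4.45 in B87 with SB505124 and 15.7 and 35.1 with TGFβ1, all with Smad4 on. The call in Smad4-off cells was lost without any 1 of 5 libraries, with adjusted p = 0.436 without the Smad4-off TGFβ1 library of B87. Fzd5 and Fzd7, Frizzled receptors, fell by 1.21 ± 0.169 and 1.16 ± 0.148 in Smad4-on cells (edgeR adjusted p = 0.0023 and 0.00166). Without the Smad4-on TGFβ1 library of B87 the change of Fzd5 was -0.97 and under the fold threshold.

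Of 9 genes for receptor turnover and R-spondins 5 were tested. With TGFβ1 in Smad4-on cells 1 rose and 3 fell, with a median log2 fold change of -1.25. Rnf43, the ligase that removes Frizzled receptors, fell by 1.48 ± 0.293, and Lgr4, an R-spondin receptor, by 1.25 ± 0.351 (edgeR adjusted p = 0.00942 and 0.0330). Without the Smad4-on TGFβ1 library of B73 these adjusted p-values were 0.0580 and 0.190. Lgr6, a related receptor, rose by 3.02 ± 0.682 (edgeR adjusted p = 0.0152, and 0.0953 without the Smad4-on SB505124 library of B87). Lgr5, a stem cell marker and R-spondin receptor, had 33 and 23 counts (B73 and B87) with Smad4 off under TGFβ1 and 1 and 0 with Smad4 on (edgeR adjusted p = 0.0384, and 0.166 without the Smad4-on TGFβ1 library of B73).

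Of 17 antagonists 4 were tested, and with TGFβ1 in Smad4-on cells 1 rose and 2 fell. Dkk2, a ligand of LRP co-receptors, rose by 2.60 ± 0.411 in Smad4-on cells and 3.46 ± 0.444 in Smad4-off cells (edgeR adjusted p = 0.00372 and 0.00457). Notum, the enzyme that removes the lipid of Wnt ligands, fell by 2.65 ± 0.629 in Smad4-on cells, from 8 and 123 counts (B73 and B87) to 3 and 12. Its edgeR adjusted p = 0.0182 became 0.385 without the Smad4-on SB505124 library of B87. Apcdd1, a membrane-bound inhibitor, fell by 1.57 ± 0.106 in Smad4-on cells (edgeR adjusted p = 0.000162). It was the 1 pathway gene called in the interaction, at -1.17 ± 0.147 (edgeR adjusted p = 0.0496), and the call was lost with each of the 8 libraries left out, up to 0.264 without the Smad4-off TGFβ1 library of B73.

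All 18 β-catenin transducers were tested. Lef1, a TCF/LEF factor, passed with TGFβ1 in Smad4-on cells, from 0 counts in each line to 1 in B73 and 24 in B87 (edgeR adjusted p = 0.0196, and 0.303 without the Smad4-on TGFβ1 library of B87). The list's median log2 fold change there was 0.13. Of 11 β-catenin target genes 7 were tested, and 2 rose in Smad4-on cells and 3 in Smad4-off cells with TGFβ1. Wisp1, a CCN family matrix protein, rose by 3.85 ± 0.0913 in Smad4-on cells and 3.24 ± 0.0931 in Smad4-off cells, and with Smad4 under TGFβ1 by 1.37 ± 0.0799 (edgeR adjusted p = 5.72e-06, 3.15e-05 and 0.000902). It was at 6.97 and 23.2 CPM (B73 and B87) with SB505124 and at 108 and 318 with TGFβ1, with Smad4 on. Cd44, a hyaluronan receptor, rose by 1.08 ± 0.137 in Smad4-on cells (edgeR adjusted p = 0.00162) and fell under the fold threshold without either B87 library of the contrast, down to 0.92.

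Axin2, the most general β-catenin target and a negative regulator of the pathway, stayed low, at 1.25 to 4.99 CPM. With TGFβ1 it rose by 1.04 ± 0.234 in Smad4-off cells (edgeR adjusted p = 0.0310, 0.182 without the Smad4-off TGFβ1 library of B73, and 0.0692 by DESeq2 with the line), and in Smad4-on cells its log2 fold change was -0.60 ± 0.229 (edgeR adjusted p = 0.0865). Wisp2, a relative of Wisp1, rose by 2.07 ± 0.532 in Smad4-off cells (edgeR adjusted p = 0.0469), with log2 values of -0.32 in B73 and 2.40 in B87, and the call was lost without the Smad4-off SB505124 library of B87, at adjusted p = 0.961, and by DESeq2 with the line, at 0.608. Its line difference in the TGFβ1 effect was 2.41 ± 0.509 (edgeR adjusted p = 0.0124).

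Of 12 planar polarity genes 11 were tested, and with TGFβ1 in Smad4-on cells 2 rose and 2 fell. Celsr2, a cadherin of the polarity complex, fell by 1.40 ± 0.191 with Smad4 on under TGFβ1 (edgeR adjusted p = 0.00948, and 0.106 without the Smad4-off TGFβ1 library of B73). Prickle2, a polarity adaptor, rose by 2.18 ± 0.640 in Smad4-on cells with TGFβ1 (edgeR adjusted p = 0.0379) from 0 and 8 counts to 6 and 25. Celsr3 and Daam2, a relative of Celsr2 and a formin, fell by 1.26 ± 0.377 and 1.26 ± 0.313 (edgeR adjusted p = 0.0412 and 0.0215). These 3 calls were not stable. With each of the 8 libraries left out in turn, Celsr3 was called in 0 of 8 fits, Prickle2 in 1 and Daam2 in 4, with the highest adjusted p at 0.204 and 0.252 without the Smad4-on TGFβ1 library of B87 for Celsr3 and Prickle2, and at 0.112 without that of B73 for Daam2. DESeq2 with the line gave 0.306 for Celsr3, 0.116 for Prickle2 and 0.0875 for Daam2. The other gene that rose was Daam1, a formin related to Daam2, outside the naming rule and named after its values were seen. It rose by 1.23 ± 0.139 (edgeR adjusted p = 0.000973) and was called in 8 of 8 such fits.

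**Figure D4:**
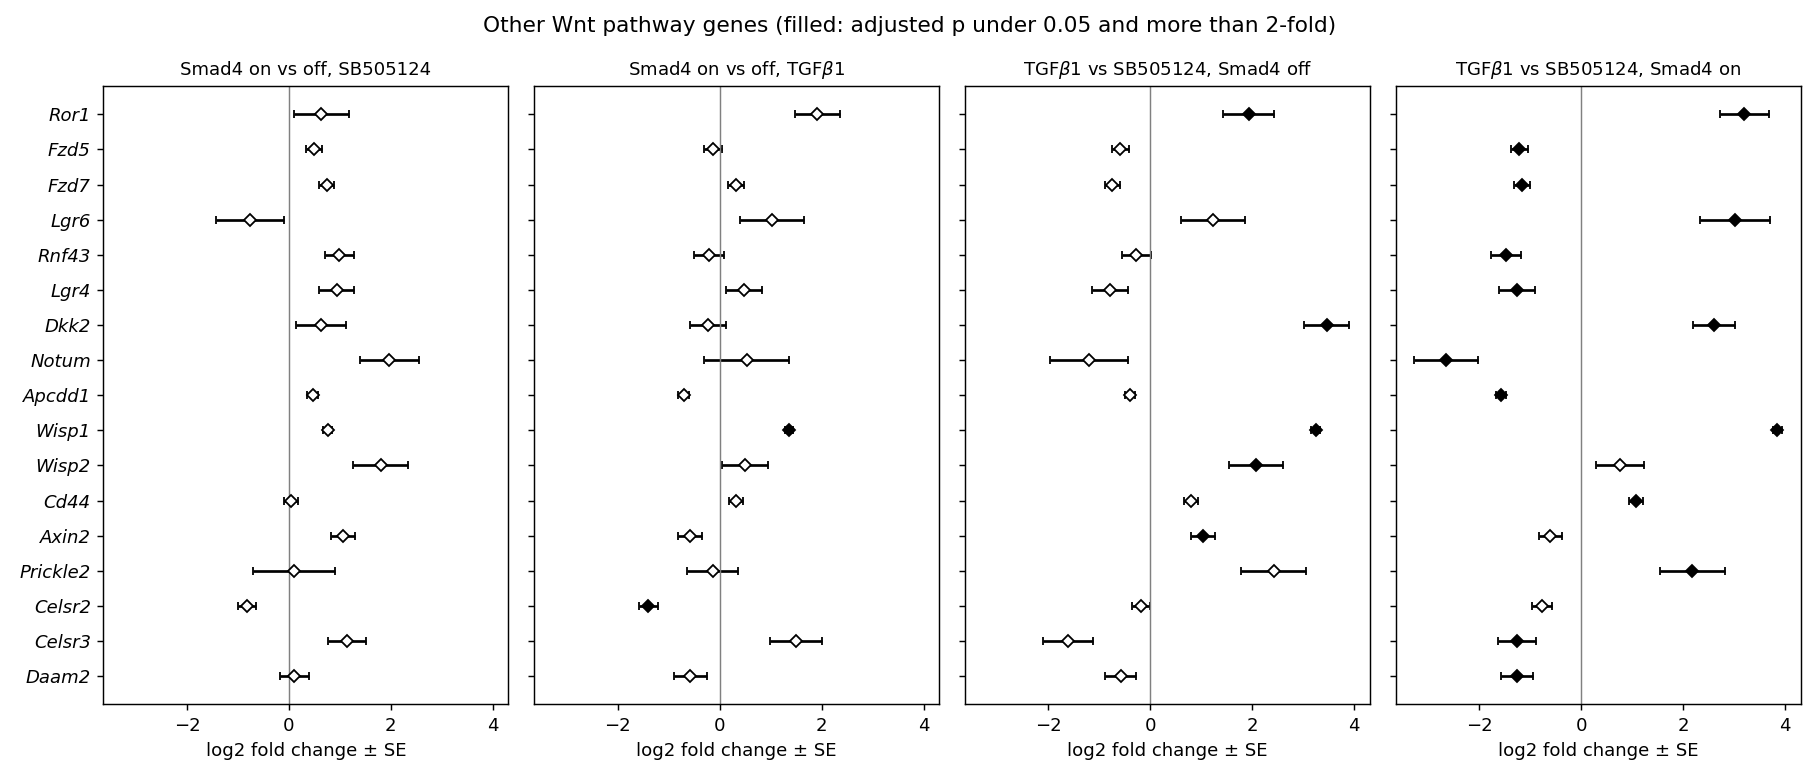
Each panel gives 1 comparison, with the edgeR log2 fold change and SE (n = 2 lines) of 17 named pathway genes, filled where the adjusted p was under 0.05 and the change over 2-fold. With TGFβ1 in Smad4-on cells Wisp1, Ror1, Lgr6 and Dkk2 lie right of 0, at 2.60 to 3.85, and Notum, Apcdd1, Rnf43, Lgr4, Fzd5 and Fzd7 left of it.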

How the data were processed

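RNA was poly(A)-selected and sequenced as 75-base single reads with a stranded kit. Per the methods and the labels, the authors trimmed reads with Trimmomatic 0.36, aligned them with STAR 2.5.3a to GRCm38 and deposited raw gene counts from featureCounts 1.6.3. Strand and multimapping settings are not given in the sources used here. The deposited counts were tested with the edgeR 4.0.16 quasi-likelihood test (R 4.3.3) on all 8 libraries, with the 4 groups, the line as a block, TMM scaling, edgeR's filter by group and Benjamini-Hochberg adjustment over 14301 genes. The methods used DESeq2, tried here as an alternative (1.42.0). A call needed an adjusted p under 0.05 and more than a 2-fold change. SE is the absolute log2 fold change over the root of F. Values per line are log2 CPM with a prior count of 2, and other CPM carry none. The block pairs libraries of the same cell line: deviations of B73 from the group means correlated across genes at 0.642 to 0.774 over the 6 pairs of groups. Nothing in the labels says that libraries of 1 line came from separate cultures. With the line as a block, p-values of the group comparisons set a difference against the spread left after groups and line. For each gene this spread is 1 estimate over all 8 libraries, drawn toward that of other genes, and the SE rests on it. The constant difference between the lines is not part of that spread. Counts were simulated for Smad4 on against off under TGFβ1, with 200 of 14301 genes changed by a log2 fold change of 2. The fit with the line recovered 99.5% of these genes and the fit without it 54%. These shares hold for changes of that size, and none is given here for smaller changes or for false calls.

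All 10 members are named. Of each other list the genes called in 1 or more of the 5 Smad4 and treatment contrasts are named, at most 4 a list, by the size of the change. Of the 3 tested members with the highest level per length, the 2 most correlated genes are named, except 1 that is not reported here. The members and lists were chosen with earlier results of these data known. Exon lengths and overlaps come from GENCODE M21, which held 53360 of the 53465 genes, and 99.83% of those overlapped their position in the table. Alternatives were fits with no line block, DESeq2, its size factors, other count filters, no fold rule, only the libraries compared, total-count scaling, the longest transcript as length, and each library left out.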

Additional observations from a re-analysis of the deposited data

Results flagged for a closer look

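A fit with separate line effects, which leaves 1 residual degree of freedom, marked the Smad4 effects of 2 members for a difference between the lines: the fitted effect was 1.96 higher in B87 for Wnt5a and 2.72 higher for Wnt5b, on the log2 scale. These are given as a description, and nothing is read from their calls, since the members were chosen with these values known. Among the other pathway genes the line difference passed the threshold for Wnt10b (1.52), Lgr6 (1.87), Prickle1 (1.06), Ror1 (-1.79) and Celsr1 (-1.75), with edgeR adjusted p = 3.33e-05, 3.72e-06, 0.0107, 0.000438 and 0.000129. The TGFβ1 effect differed between the lines for Lgr6 (1.6) and Wisp2 (2.41), with edgeR adjusted p = 7.89e-05 and 0.0124. The Smad4 effect differed between the treatments for Apcdd1 (-1.17, edgeR adjusted p = 0.0496).

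Within single comparisons some genes had log2 fold changes of opposite sign in the lines, and the difference within each of these comparisons was not tested. For Wnt10b in B87 and for Wnt10a in Smad4-off cells the values were near 0. With Smad4 on against off, Wnt5a under SB505124 had log2 fold changes of -1.12 in B73 and 0.95 in B87. Wnt10b had -1.82 and 0.056 under TGFβ1 and -1.18 and 0.021 under SB505124. With TGFβ1 against SB505124 in Smad4-on cells, Wnt5b had 1.11 and -0.76 and Wnt10a 1.00 and -0.47. In Smad4-off cells Wnt5b had 0.36 and -0.55 and Wnt10a -0.11 and 0.060. Several of these rest on few counts: Wnt5b had 3 to 77 and Wnt10a 1 to 199 per library.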

How the results depend on the processing

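Without the line as a block (no replicate block), the members called by edgeR went from 3 to 1 (Wnt7a) with Smad4 under TGFβ1, from 3 to 0 with Smad4 under SB505124, from 4 to 2 (Wnt7a and Wnt9a) with TGFβ1 in Smad4-off cells and from 4 to 3 (without Wnt7b) in Smad4-on cells, while all genes called went from 446 to 36, 156 to 2 and 848 to 168, and in Smad4-on cells from 1993 to 1035. DESeq2 with the line called 3 members with TGFβ1 in Smad4-off cells (without Wnt7b). DESeq2 without the block called 0 with Smad4 under SB505124, 2 with Smad4 under TGFβ1 (without Wnt10a) and 3 with TGFβ1 in Smad4-off cells (without Wnt7b). With no filter on low counts 6 members were called with Smad4 under TGFβ1 (Wnt5a, Wnt5b and Wnt11 added) and 1, Wnt7b, in the interaction. With 10 counts required in every library, which left Wnt5a, Wnt7a and Wnt9a testable, the counts were 1, 0, 2 and 2 in the order Smad4 under TGFβ1, Smad4 under SB505124, TGFβ1 in Smad4-on and TGFβ1 in Smad4-off cells. With only the 4 libraries compared, 0 were called with Smad4 under SB505124. With each library left out in turn, the members called ranged from 2 to 4, 0 to 3, 4 to 6 and 3 to 4 in that order, and were 0 throughout for the interaction. The cause of these changes was not tested, apart from the smaller set of genes tested and the fewer samples. Except for the edgeR fit without the block, counts over all genes are not given here. The members' counts under the other alternatives therefore cannot be set beside all genes, and nothing is read from them.

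Of 516 other values of single members under the alternatives, 448 moved by no more than the spread between the lines, 68 moved by more, and 0 called values changed sign. Scaling by total counts in place of TMM shifts every gene by -0.12 with Smad4 under TGFβ1 and -0.13 with TGFβ1 in Smad4-on cells on the log2 scale. The order of the members per kilobase was the same with the longest transcript. Wnt3, Wnt6 and Wnt11, and Wnt4 with Smad4 on under TGFβ1, are limited by depth.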
